A study of Homo sapiens with 5 samples.

Results

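The genes described here are the ligands, receptors, inhibitors and nuclear factors of WNT signalling. They were taken from a fixed list of 37 symbols, of which 35 were measured among the 14912 named genes of the series. Of those 14912, 7790 are protein coding in RefSeq. The rest also count in the level floor and in every share over all named genes given below. TCF7 and TLE1 had no probe set under their own symbol in the values used and were not analysed here. Each gene was read from the probe set that carried that symbol alone, and where there were several, from the one that was brightest on average over the 5 arrays. Levels are given on the deposited scale, read as log2, so that a difference of 1 is a 2-fold difference.

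Gene expression had been measured on Affymetrix arrays in 5 lines made from HMLE, human mammary epithelial cells that were immortalised in culture. The LACZ line, with the reporter of that name, was the control. The 4 factor lines overexpressed FOXQ1, SNAI1, TWIST1 and ZEB2, each a transcription factor of EMT, the epithelial to mesenchymal transition. All lines shared the HMLE background, no line was treated, and each was represented by 1 array. The promoter of the constructs, and whether a line was a clone or a pool, are not stated in the labels. The study asked which expression changes the EMT models had in common. With 1 array per line there was no replicate error, no test was possible and no p-value is given, so each difference is between individual arrays and the number of arrays limits the precision. All 4 differences from LACZ used the same LACZ array.

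In WNT signalling, secreted ligands are carried to the cell surface by WLS and bind Frizzled (FZD) receptors. In the canonical branch this protects beta-catenin, the product of CTNNB1, from a destruction complex that includes APC and GSK3B, and beta-catenin then joins TCF and LEF factors on DNA, where TLE corepressors otherwise sit. Secreted inhibitors of the SFRP and DKK families block ligands or co-receptors, and R-spondins strengthen the signal. In mammary epithelium the pathway is known for its part in branching and in the upkeep of stem and progenitor cells.

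A gene was called higher or lower in a factor line when it was at least 2-fold away from LACZ and the brighter of the pair reached a level floor of 4.72, the median of the mean levels of all named genes. No detection calls were used, so this floor stood in for signal above background. Of the 35 genes, 14 reached the floor in at least 1 line and 21 did not reach it in any. Calls were made for 8 of the 14: WNT5A, SFRP1, FRZB, TCF7L1, FZD3, FZD6, FZD7 and TLE4. The other 27 genes differed from LACZ by less than 2-fold in all 4 factor lines, whether or not they reached the floor.

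**Figure D1:**
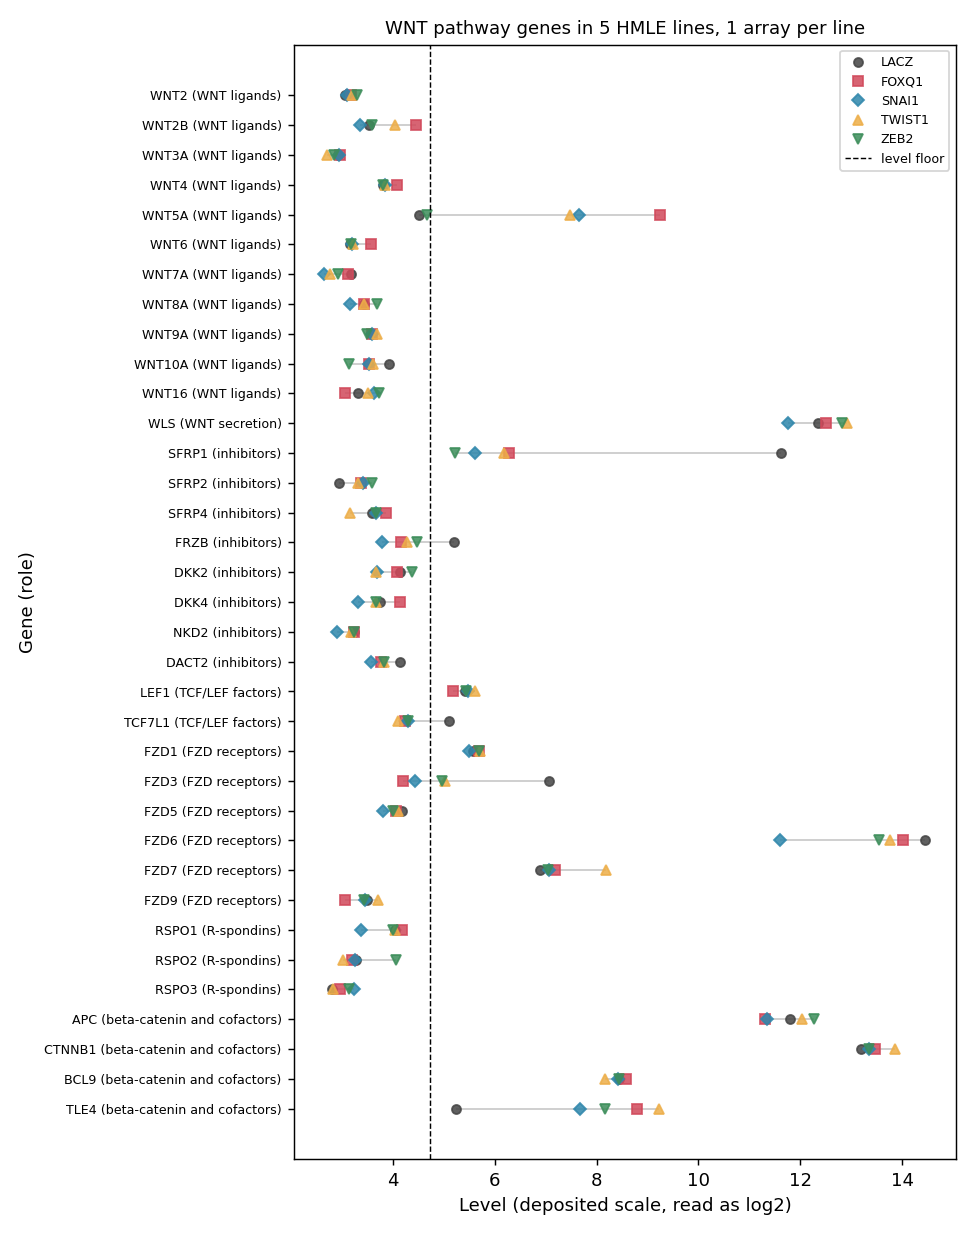
Level of each of the 35 WNT genes (vertical axis, with its role) on the 5 arrays; the horizontal axis is the deposited scale read as log2, each symbol is 1 line, and the dashed line is the floor of 4.72. SFRP1 stands alone at 11.63 in LACZ, WNT5A spreads from 4.51 to 9.25, and 21 genes lie left of the floor in every line.

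The labels and the cell type were looked at first. FOXQ1, TWIST1 and ZEB2 each had their highest level in the line named for them, at 6.23, 9.96 and 7.39, and SNAI1 was not analysed here. FOXQ1 was between 3.56 and 3.61 in the other lines. TWIST1 and ZEB2 were called higher in all 4 factor lines, with TWIST1 between 8.2 and 9.18 and ZEB2 between 6.23 and 7.03 in the factor lines named for other genes, so that they separate these labels only weakly. Array medians over all 65521 probe sets lay between 4 and 4.05. Of 9 epithelial markers, 8 reached the floor, and all 8 were called lower in each factor line; their summed level with ELF3, the marker under the floor, was 108.9 in LACZ and between 39.4 and 44.7 in the factor lines. Only ITGA6 and CAV1 were measured among 5 basal mammary markers, with a summed level of 30.7 in LACZ and between 26.6 and 31.2 elsewhere. The summed level of 7 measured fibroblast markers was 38.1 in LACZ and between 46.9 and 55.4 in the factor lines, with TCF21 and FBLN2 under the floor throughout. COL1A2 and PDGFRB were called higher in every factor line, by 7.28 and 5.08 in FOXQ1, 7.1 and 3.02 in SNAI1, 4.52 and 3.84 in TWIST1 and 4.56 and 1.98 in ZEB2. DPT was called higher in FOXQ1 and TWIST1, PDGFRA in TWIST1, and FAP in no line. Among 4 endothelial and 5 leukocyte markers, EMCN, PTPRC and LAPTM5 reached the floor, and summed levels were 15.5 and 22.3 in LACZ, against between 15.2 and 15.8 and between 19.3 and 26 elsewhere. Of these 9 genes LAPTM5 alone was called, at 6.18 in LACZ, 10.45 in FOXQ1, 5.67 in SNAI1, 7.29 in TWIST1 and 3.78 in ZEB2, higher in FOXQ1 and TWIST1 and lower in ZEB2, while PTPRC lay between 4.9 and 5.03. The part of these shifts in the WNT values below was not tested. Since RNA was taken from whole cultures, fewer cells of a type and less RNA per cell cannot be told apart.

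Relative to LACZ, the FOXQ1 line had 2 of the 35 WNT genes called higher and 3 lower, where 6.55% and 6.96% of all named genes were called in those directions. The SNAI1 line had 2 higher and 4 lower, beside 4.26% and 8.01% of all named genes. The TWIST1 line had 3 higher and 3 lower, beside 7.28% and 4.22%. The ZEB2 line had 1 higher and 2 lower, beside 6.4% and 4.32%. As shares of the 35 genes, these counts ran from 2.86% to 11.4%, and each lay within 2 genes of the share over all named genes. Of all called genes, 34.7% were higher in SNAI1 and 63.3% in TWIST1, and quantile normalization over the named genes turned these into 49.7% and 53.1% while it changed no count of WNT genes by more than 1. The median difference of the 35 genes was 0.03 in FOXQ1, -0.08 in SNAI1, 0 in TWIST1 and 0.01 in ZEB2, and that of all named genes was 0, -0.09, 0 and 0. The SNAI1 median of the WNT genes was 0.04 with the arrays centred on the median gene. Only 14 of the 35 WNT genes reached the floor and so could be called, against 8492 of the 14912 named genes, and these shares are therefore given as a description. What follows concerns single members.

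**Figure D2:**
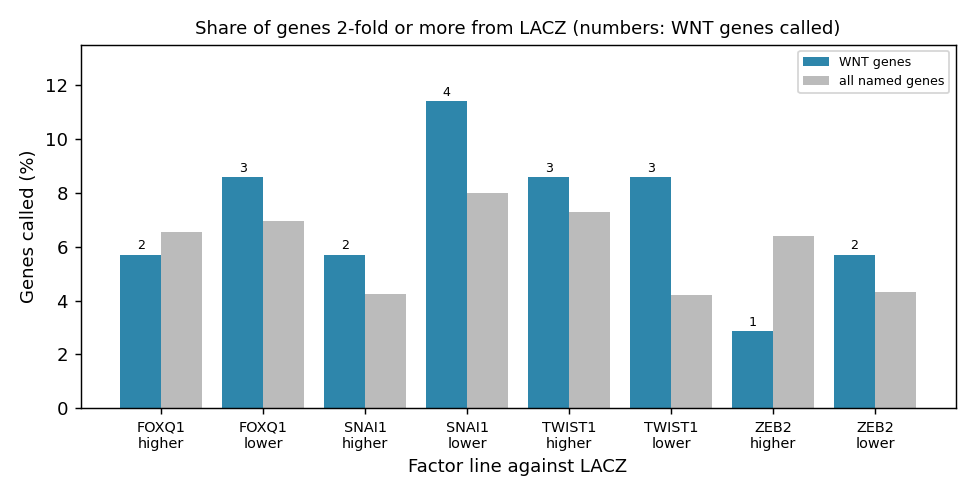
Percentage of genes called (vertical axis) higher or lower than LACZ in each factor line (horizontal axis), for the 35 WNT genes (blue, with the number of genes above the bar) and for all 14912 named genes (grey). The WNT share lies above the grey bar in 6 of the 8 comparisons and below it for genes higher in FOXQ1 and in ZEB2, each bar resting on 1 to 4 genes.

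Among the ligands, WNT5A was called higher in 3 of the 4 factor lines and the other 10 measured ligands were under the floor in every line. WNT5A (GRCh38.p14 chromosome 3, 55465715 to 55505263) encodes a ligand known mainly for signalling without beta-catenin, through receptors such as ROR1 and ROR2, and for its effects on cell movement. Its level was 4.51 in LACZ, 9.25 in FOXQ1, 7.65 in SNAI1, 7.47 in TWIST1 and 4.66 in ZEB2. LACZ and ZEB2 were thus both under the floor, FOXQ1 was the highest, and SNAI1 and TWIST1 lay between and within 0.18 of each other. The differences from LACZ were 4.74, 3.14, 2.96 and 0.15 in FOXQ1, SNAI1, TWIST1 and ZEB2. Because the LACZ level was under the floor, these are not exact ratios. Between factor lines, FOXQ1 exceeded SNAI1 by 1.6 and TWIST1 by 1.78, comparisons that do not involve the LACZ array. It exceeded ZEB2 by 4.59, again not an exact ratio, as ZEB2 was under the floor.

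The WNT5A signal came from 1 of its 2 probe sets. The other probe set had 4.3 in LACZ, 4.64 in FOXQ1, 4.42 in SNAI1, 4.31 in TWIST1 and 4.42 in ZEB2, under the floor in every line, and so did not show the differences. With the median of both probe sets, the differences from LACZ were 2.54, 1.63, 1.49 and 0.14 in FOXQ1, SNAI1, TWIST1 and ZEB2, and the same 3 lines were called. Which transcripts the probe sets cover was not known here.

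**Figure D3:**
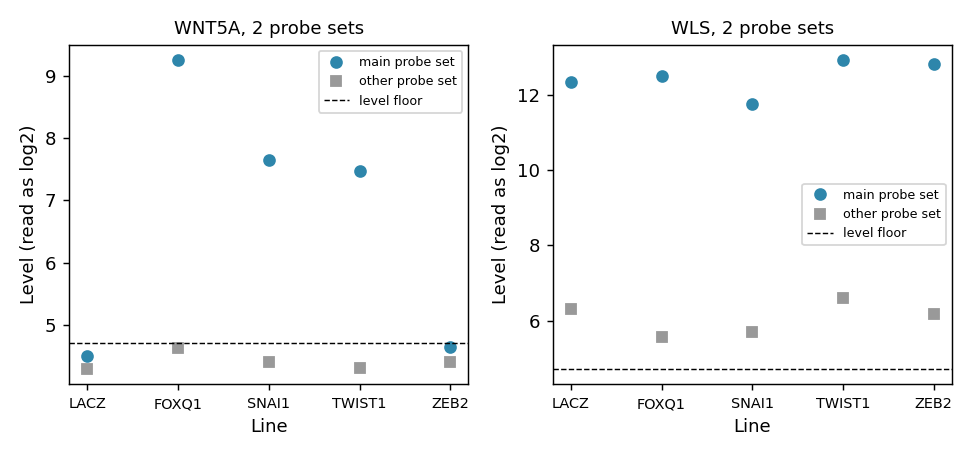
Level (vertical axis, read as log2) of both probe sets of WNT5A (left) and of WLS (right) in the 5 lines (horizontal axis), with the floor of 4.72 dashed; each point is 1 array. The main WNT5A probe set runs from 4.51 to 9.25 while the other stays between 4.3 and 4.64, and both WLS probe sets stay above the floor.

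Promoters of WNT5A are shown because it is the ligand whose level differed most, and because the overexpressed SNAI and ZEB factors are known to bind the E-box CACCTG, TWIST1 the wider class CANNTG, and forkhead factors such as FOXQ1 the core GTAAACA. RefSeq's annotation gave 2 starts on the minus strand, each printed from 250 bases before to 50 bases after the start, with every CANNTG in capitals, a class that includes CACCTG.
WNT5A, chr3:55487257-55487556: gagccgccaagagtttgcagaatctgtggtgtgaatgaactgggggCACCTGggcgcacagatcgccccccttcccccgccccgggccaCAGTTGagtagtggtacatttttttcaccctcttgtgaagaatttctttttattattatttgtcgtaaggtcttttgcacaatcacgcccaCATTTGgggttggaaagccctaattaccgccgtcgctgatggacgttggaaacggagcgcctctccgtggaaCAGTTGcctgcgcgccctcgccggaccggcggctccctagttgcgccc
WNT5A, chr3:55481349-55481648: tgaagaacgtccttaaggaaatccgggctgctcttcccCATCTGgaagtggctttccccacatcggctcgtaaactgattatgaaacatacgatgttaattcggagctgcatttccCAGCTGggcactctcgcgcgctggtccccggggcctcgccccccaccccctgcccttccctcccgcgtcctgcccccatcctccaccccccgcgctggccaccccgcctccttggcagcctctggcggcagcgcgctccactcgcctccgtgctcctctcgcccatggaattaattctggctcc
The upstream window held 4 CANNTG, of which 1 was CACCTG, and the downstream window held 2 CANNTG and 0 CACCTG. Neither held GTAAACA or CTTTGAT, the form of the TCF and LEF core searched here, on either strand. Counting both strands, CANNTG occurred in 68.7% of 35116 RefSeq promoters of that length, CACCTG in 20.6%, GTAAACA in 3.42% and CTTTGAT in 2.62%. These letters describe the windows and are not evidence of binding.

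The remaining ligands had levels between 2.65 and 4.45 over all lines. They were WNT2, WNT2B, WNT3A, WNT4, WNT6, WNT7A, WNT8A, WNT9A, WNT10A and WNT16. WNT2B had the widest range of these, from 3.35 in SNAI1 to 4.45 in FOXQ1, still under the floor. No order is read from levels this low. WLS, the carrier that brings WNT proteins to the surface, was well above the floor in every line, at 12.35 in LACZ, 12.51 in FOXQ1, 11.75 in SNAI1, 12.92 in TWIST1 and 12.82 in ZEB2. None of these lay 2-fold from LACZ, but TWIST1 exceeded SNAI1 by 1.17. The other WLS probe set, at 5.7 in SNAI1 and 6.6 in TWIST1, had the same 2 lines 0.9 apart. Its lowest line was FOXQ1, at 5.56 against 6.31 in LACZ, whereas on the main probe set SNAI1 was the lowest and FOXQ1 was above LACZ.

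The inhibitor SFRP1 had the largest differences of all 35 genes, in each of the 4 factor lines downward. SFRP1 (chromosome 8, 41261962 to 41309473) encodes a secreted Frizzled-related protein that binds WNT ligands and keeps them from their receptors. Its level was 11.63 in LACZ, 6.27 in FOXQ1, 5.61 in SNAI1, 6.18 in TWIST1 and 5.22 in ZEB2. All 4 factor lines lay far under LACZ and all 4 were still above the floor. The differences were -5.36, -6.02, -5.45 and -6.41, or 41.1-fold, 64.9-fold, 43.7-fold and 85-fold lower if the base is 2. Counting SFRP1, between 20 (in ZEB2) and 42 (in FOXQ1) of the 14912 named genes differed downward by at least as much. Within the factor lines the range was narrow, at 1.05 between FOXQ1 and ZEB2.

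FRZB, another secreted Frizzled-related inhibitor, was at 5.19 in LACZ and under the floor in all factor lines, at 4.15 in FOXQ1, 3.79 in SNAI1, 4.28 in TWIST1 and 4.47 in ZEB2. It was called lower in FOXQ1 and SNAI1, by differences of -1.04 and -1.4, and differed by -0.91 in TWIST1 and -0.72 in ZEB2. These are not exact ratios, since the factor lines were under the floor, and they lie close to the threshold, with LACZ itself only just above the floor. The other inhibitors, SFRP2, SFRP4, DKK2, DKK4, NKD2 and DACT2, were between 2.89 and 4.38, under the floor in every line. NKD2 and DACT2 act inside the cell, on the Dishevelled proteins that pass on the WNT signal, while DKK2 and DKK4 act on co-receptors.

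The measured receptors did not move together: of 6 Frizzled genes, FZD3 was called lower in each factor line, FZD6 lower in SNAI1 and FZD7 higher in TWIST1. The values used covered chromosomes 1 to 9 only, so these genes do not stand for the whole family. FZD3 (chromosome 8, 28494212 to 28574258), a receptor known for its part in planar cell polarity and axon guidance, was at 7.06 in LACZ, 4.2 in FOXQ1, 4.44 in SNAI1, 5.02 in TWIST1 and 4.96 in ZEB2. LACZ was the highest, and FOXQ1 and SNAI1 were under the floor. The differences were -2.86, -2.62, -2.04 and -2.1, of which the first 2 are not exact ratios. The last 2 are approximate, as TWIST1 and ZEB2 were only just above the floor. All 4 calls depended on the floor: with it at percentile 75, a level of 7.92, the LACZ level was too low and FZD3 was called in no line.

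FZD6 (chromosome 8, 103298494 to 103332866), also a receptor of planar cell polarity, was at 14.46 in LACZ, 14.01 in FOXQ1, 11.6 in SNAI1, 13.77 in TWIST1 and 13.54 in ZEB2. SNAI1 stood apart from the other 4 lines, at a difference of -2.86 from LACZ and between 1.94 and 2.41 under the other factor lines. The ZEB2 difference of -0.92 fell just short of the threshold. Under quantile normalization it was -1.04 and was called.

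FZD7 (chromosome 2, 202033855 to 202038441), a receptor linked to canonical signalling in stem and mammary cells, was at 6.89 in LACZ, 7.18 in FOXQ1, 7.07 in SNAI1, 8.18 in TWIST1 and 7.04 in ZEB2. TWIST1 was the highest, 1.29 above LACZ and between 1 and 1.14 above the other factor lines. The LACZ, FOXQ1, SNAI1 and ZEB2 levels all lay within 0.29. FZD1 reached the floor in every line, between 5.5 and 5.71, with no difference over 0.13 from LACZ. FZD5 and FZD9 were under the floor in every line, between 3.06 and 4.18. The R-spondin genes RSPO1, RSPO2 and RSPO3 were also under it, between 2.8 and 4.18.

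**Figure D4:**
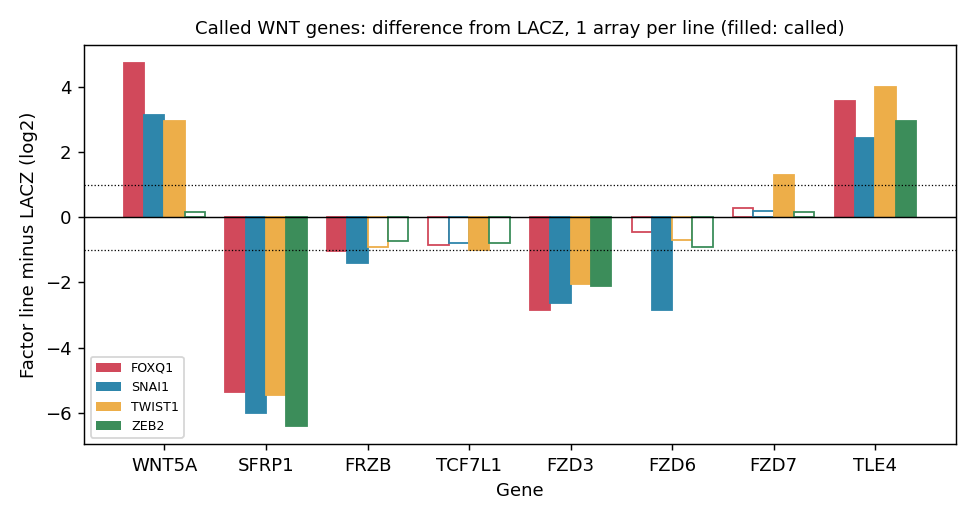
Difference of each factor line from LACZ (vertical axis, log2) for the 8 called WNT genes (horizontal axis); each bar is the difference of 2 arrays, filled where called, and dotted lines mark 2-fold. SFRP1 and FZD3 are lower and TLE4 higher in every factor line, WNT5A is higher except in ZEB2, and FZD6 in SNAI1 and FZD7 in TWIST1 are called in 1 line each.

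Of the nuclear factors, the corepressor gene TLE4 was called higher in every factor line. TLE4 (chromosome 9, 79571965 to 79726882) encodes a Groucho family protein that occupies TCF and LEF factors when beta-catenin is absent and also serves other DNA-binding factors. Its level was 5.23 in LACZ, 8.79 in FOXQ1, 7.67 in SNAI1, 9.22 in TWIST1 and 8.17 in ZEB2. LACZ was the lowest by a wide margin, SNAI1 the lowest factor line and TWIST1 the highest. The differences were 3.56, 2.44, 3.99 and 2.94, or 11.8-fold, 5.43-fold, 15.9-fold and 7.67-fold higher. Counting TLE4, between 86 (in TWIST1) and 154 (in SNAI1) named genes differed upward by at least as much. The factor lines themselves ranged over 1.55.

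Promoters of TLE4 are printed for comparison with WNT5A, as it is the called gene that was higher in every factor line. RefSeq gave 2 starts on the plus strand, with windows and capitals as above.
TLE4, chr9:79571715-79572014: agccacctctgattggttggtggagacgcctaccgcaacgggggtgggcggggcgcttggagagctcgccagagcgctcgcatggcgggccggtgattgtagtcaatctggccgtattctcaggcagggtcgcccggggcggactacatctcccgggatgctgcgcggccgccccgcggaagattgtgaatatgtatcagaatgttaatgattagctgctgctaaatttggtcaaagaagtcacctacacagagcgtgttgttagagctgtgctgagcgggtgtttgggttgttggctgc
TLE4, chr9:79572927-79573226: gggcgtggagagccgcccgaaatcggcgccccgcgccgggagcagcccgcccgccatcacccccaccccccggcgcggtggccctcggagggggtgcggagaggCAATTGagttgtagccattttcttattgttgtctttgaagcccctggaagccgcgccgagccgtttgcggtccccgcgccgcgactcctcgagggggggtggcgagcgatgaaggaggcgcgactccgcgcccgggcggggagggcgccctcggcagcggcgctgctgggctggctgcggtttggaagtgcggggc
The upstream window held 0 of the 4 motifs searched, and the downstream window held 1 CANNTG, which 68.7% of all promoters have, and 0 of the other 3. Variants of the motifs were not searched, and the printed windows hold near matches. The downstream TLE4 window holds ctttgaa, which differs from CTTTGAT in the last base. The upstream TLE4 window holds gtcaaag, 1 base from CTTTGAT on the other strand. The downstream WNT5A window holds gtaaact, 1 base from GTAAACA. Others were not looked for.

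TCF7L1, a TCF factor known mainly as a repressor, was at 5.09 in LACZ and under the floor elsewhere, at 4.24 in FOXQ1, 4.3 in SNAI1, 4.09 in TWIST1 and 4.3 in ZEB2. Only the TWIST1 difference, at -1, met the threshold, and it met it exactly. It fell to between -0.94 and -0.97 under each of the 4 other scalings tried and was then not called. LEF1, the partner of beta-catenin that is often itself a WNT target, lay between 5.18 in FOXQ1 and 5.6 in TWIST1, with 5.42 in LACZ.

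Inside the cell, CTNNB1, APC and BCL9 were well above the floor and within 2-fold of LACZ in every factor line. This does not hold for the whole core: GSK3B, given below, was lower than LACZ in each factor line and called lower in SNAI1. CTNNB1 had 13.2 in LACZ, 13.46 in FOXQ1, 13.36 in SNAI1, 13.87 in TWIST1 and 13.35 in ZEB2. APC had 11.8 in LACZ, 11.31 in FOXQ1, 11.35 in SNAI1, 12.03 in TWIST1 and 12.27 in ZEB2. BCL9, a coactivator of beta-catenin, had between 8.17 and 8.57. TWIST1 had the highest CTNNB1 level, 0.67 above LACZ, and APC was lower than LACZ in FOXQ1 and SNAI1 and higher in TWIST1 and ZEB2, all under 2-fold. RNA levels of CTNNB1 say nothing of the protein, whose stability is the regulated step.

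The factor lines were also compared with each other, without LACZ. For 6 of the 35 genes (WNT5A, WLS, SFRP1, FZD6, FZD7 and TLE4) the highest and lowest of the 4 lines were at least 2-fold apart with the highest above the floor, or 17.1%, where 21.7% of all named genes were. The ranges were 2.41 for FZD6 and 1.55 for TLE4, and 4.59 for WNT5A, whose lowest line was under the floor. A range over fewer lines cannot be wider, so leaving out a line can only lower such counts. Without the SNAI1 line, FZD6 and WLS no longer met this rule and 4 genes did, beside 14% of all named genes. FZD7 was lost without TWIST1, and SFRP1 was lost without FOXQ1 or without ZEB2. In each of these cases 5 genes were left, beside 17.8%, 13.7% and 16.8% of all named genes without TWIST1, FOXQ1 and ZEB2.

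Other genes of the pathway were taken from a list of 37, of which 31 were measured and 24 reached the floor. In FOXQ1 2 were called higher and 3 lower, in SNAI1 2 and 4, in TWIST1 3 and 2, and in ZEB2 3 and 2, with list medians of -0.08, -0.32, 0.19 and -0.06. Of all named genes, 6.55% were called higher and 6.96% lower in FOXQ1, and 4.26% and 8.01% in SNAI1. In TWIST1 these shares were 7.28% and 4.22%, and in ZEB2 6.4% and 4.32%. Over the 4 lines together, 16.9% of the list's possible calls were made, beside 12% in all named genes. As 24 of the 31 genes reached the floor, against 8492 of 14912, these shares are a description only. ROR1, a receptor for WNT5A, was at 10.03 in LACZ, 9.62 in FOXQ1, 11.81 in SNAI1, 12.84 in TWIST1 and 12.68 in ZEB2. It was called higher in SNAI1, TWIST1 and ZEB2. FOXQ1, the line with the highest WNT5A level, had the lowest ROR1 level, at an uncalled difference of -0.41 from LACZ. LACZ, with the lowest WNT5A level, had the next lowest ROR1 level. ROR2 was not measured, and RYK, another WNT receptor, lay between 12.19 and 12.78.

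Inhibitors that act inside the cell, and the receptor CELSR2, also appeared in this list. CTNNBIP1, a small protein that keeps beta-catenin from TCF factors, was at 7.03 in LACZ and at 5.18, 4.36, 5.17 and 5.17 in FOXQ1, SNAI1, TWIST1 and ZEB2. It was called lower in each, with SNAI1 the lowest. CELSR2, an adhesion receptor of planar cell polarity, was at 6.21 in LACZ and at 4.62, 3.46, 4.44 and 4.31 in the same order, all 4 under the floor and called lower, so that the differences are not exact ratios. Neither CTNNBIP1 nor CELSR2 was called in any line with the floor at 7.92. HBP1, a repressor of WNT target genes, was at 9.16 in LACZ and at 11.22, 10.01, 10.25 and 9.1, called higher in FOXQ1 and TWIST1, where the TWIST1 difference was 1.09 and, under quantile normalization, 0.97 and not called. GSK3B, the kinase that marks beta-catenin for destruction, was at 14.31 in LACZ and at 13.49, 12.84, 13.66 and 13.47, called lower in SNAI1.

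A list of 25 genes known as WNT targets in various tissues, of which 24 were measured and 19 reached the floor, did not go one way. In FOXQ1 4 were called higher and 4 lower, in SNAI1 5 and 4, in TWIST1 8 and 2, and in ZEB2 5 and 2, with medians of 0.01, -0.19, 0.36 and 0.05. Beside these stand, of all named genes, 6.55% higher and 6.96% lower in FOXQ1, 4.26% and 8.01% in SNAI1, 7.28% and 4.22% in TWIST1, and 6.4% and 4.32% in ZEB2. Over the 4 lines together, 35.4% of the possible calls were made in the list and 12% in all named genes. Of those named genes, 7790 of 14912 are protein coding. However, the list holds genes, such as FN1 and ID2, whose values in these lines were known when it was written, and its counts are a description only. These genes also answer to other pathways. ID2, an inhibitor of helix-loop-helix factors, was at 5.91 in LACZ and at 6.35, 10.08, 11.26 and 8.48 in FOXQ1, SNAI1, TWIST1 and ZEB2. FOXQ1 was thus within 0.44 of LACZ while the other 3 lines were called higher. EDN1, the vasoconstrictor endothelin, was at 9.73 in LACZ and at 9.54, 6.84, 7.61 and 8.5, called lower in all but FOXQ1.

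FN1, which encodes fibronectin, followed the same division as ID2, at 14.4 in LACZ and at 14.82, 16.93, 16.9 and 16.51. TERT, the telomerase subunit that HMLE cells carry as an introduced copy, was at 8.16 in LACZ and at 11.67, 13.31, 11.7 and 12.89. Taking both TERT probe sets at their median lowered the differences from 3.51, 5.15, 3.54 and 4.73 to 1.63, 2.34, 1.4 and 2.19. Whether its probe sets read the introduced or the native gene was not known here. MYC was at 14.36 in LACZ and at 13.16, 13.72, 13.89 and 13.91, called lower in FOXQ1. SP5, often used as a direct readout of canonical signalling, was under the floor in every line, between 3.11 and 3.72. It was chosen after its values were seen, and other genes of the list differed from it in both directions. CCN1 was called higher in every factor line, by 1.47, 1.54, 2.05 and 1.48 in FOXQ1, SNAI1, TWIST1 and ZEB2. VEGFA was called lower in every factor line, at differences of -2.51, -1.45, -1.04 and -1.4 in the same order.

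**Figure D5:**
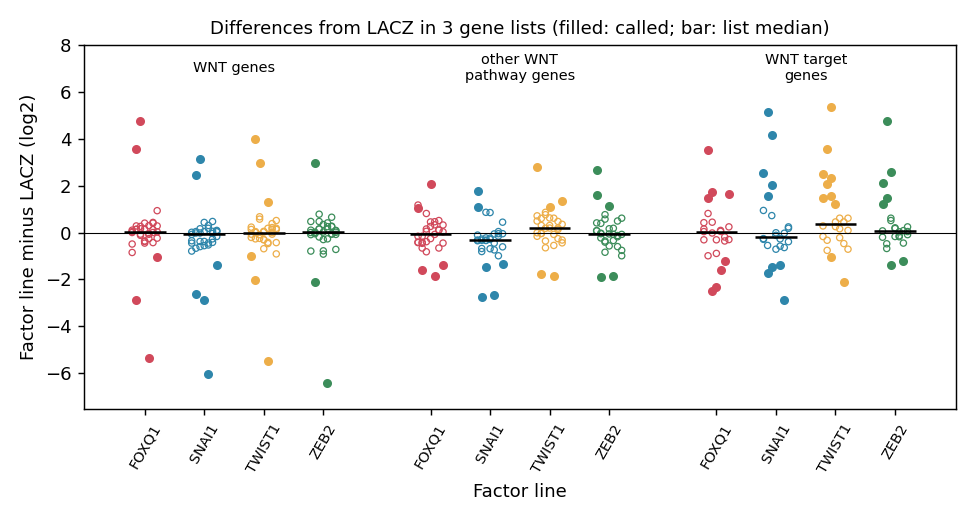
Difference of each factor line from LACZ (vertical axis, log2) for every measured gene of the 3 lists, the 35 WNT genes, 31 other pathway genes and 24 target genes; each point is 1 gene, filled where called, and black bars are list medians. The medians lie between -0.32 and 0.36, and the points furthest from 0 are SFRP1 below and WNT5A, ID2 and TERT above.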

How the data were processed

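The authors deposited 1 table of values for 65521 probe sets on 5 arrays, read here as log2 from their range of 1.99 to 19.73, since the base is not stated. Per the submitters' processing notes the Transcriptome Analysis Console and hg38 were used; normalization and array model are not given in the sources used here. Identifiers covered chromosomes 1 to 9. A platform annotation gave 16126 probe sets 1 symbol, 419 several and 48976 none; 15764 matched RefSeq genes of GRCh38.p14, 198 on another chromosome were left out, and 15566 probe sets of 14912 genes remained. Of these genes, 7790 are protein coding in RefSeq. Calls needed a 2-fold difference and a level of 4.72. Named genes were all members, the 4 called genes with the largest difference in each other list and ROR1, RYK, GSK3B and MYC. SP5, CCN1 and VEGFA were chosen after their values were seen. The members and lists were chosen with earlier results of these data known. Promoters are RefSeq's (GRCh38.p14). The calling was tried on simulated data with shifts well over the threshold in genes above the floor, so calls near either limit were not tested. Alternatives were 3 scalings, 2 floors, 2 fold thresholds and the median of probe sets; quantile normalization over named genes and leaving out each factor line were added after seeing the data. Computations ran in Python 3.11.15 with pandas 2.3.3, numpy 2.4.6, matplotlib 3.10.9 and, for loess with a span of 0.3, statsmodels 0.14.6.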

Additional observations from a re-analysis of the deposited data

Results flagged for a closer look

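SNAI2, an EMT factor in the list of WNT targets, was called in opposite directions in 2 factor lines: it differed from LACZ by -2.33 in FOXQ1 and by 1.20 in TWIST1. Each value rests on 1 array per line and on the same LACZ array, and the difference was not tested. Groups of 1 array could not be searched for outlying samples.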

How the results depend on the processing

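No paired analysis was possible because each line had 1 array, and no replicate could be left out. Among the differences of the WNT genes from LACZ that were called, none changed sign. The other floors and fold thresholds leave each difference as it was, so only the scalings and the median of probe sets could have changed a sign. With both probe sets of WNT5A taken at their median, its differences fell to 2.54, 1.63 and 1.49 in FOXQ1, SNAI1 and TWIST1. With the floor at percentile 75, a level of 7.92, 1 WNT gene was called lower in FOXQ1, 2 in SNAI1, 1 in TWIST1 and 1 in ZEB2, beside 4.42%, 5.12%, 2.25% and 2.48% of all named genes. None (0) was called higher in SNAI1, beside 2.6%, and the other pathway genes had 10 calls over the 4 lines in place of 21 (8.06% of possible calls, beside 7.61% of all genes). All calls of FZD3 and FRZB, and those of TCF7L1 in TWIST1, TLE4 in SNAI1 and WNT5A in SNAI1 and TWIST1, were lost there. At 1.5-fold, 5 WNT genes were called lower in TWIST1 and 5 in ZEB2, beside 8.87% and 8.95% of all named genes, and the other pathway genes had 43 calls (34.7%, beside 22.3%). At 3-fold, 2 WNT genes differed among the factor lines, beside 8.62% of all genes, and the other pathway genes had 13 calls (10.5%) and the target genes 21 in place of 34 (21.9%), beside 5.71%. The SNAI1 median of the WNT genes, -0.08, was 0.04 with centring on the median gene and 0.05 with quantile normalization over the named genes. That last scaling moved the share of higher calls over all named genes from 34.7% to 49.7% in SNAI1 and from 63.3% to 53.1% in TWIST1, while the counts of WNT genes moved by at most 1. The number of WNT genes differing among factor lines was between 4 and 5 with 1 line left out, beside between 13.7% and 17.8% of all named genes. The cause of these shifts was not tested, apart from the stricter rules calling fewer genes by construction. Signal over background was judged by the floor alone.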
